A study of Mus musculus with 12 samples.

Results

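The nuclear genes of oxidative phosphorylation were followed in Beko cells, a mouse pre-T cell line, with RNA-seq libraries depleted of ribosomal RNA. Members were all rows whose symbols begin Ndufa, Ndufb, Ndufc, Ndufs, Ndufv, Uqcr, Cox4, Cox5, Cox6, Cox7, Cox8 or Atp5, together with Sdha, Sdhb, Sdhc, Sdhd and Cycs. This rule found 93 of the 23366 gene symbols measured. They comprised 36 genes of complex I, 7 Ndufaf genes for complex I assembly factors, 4 genes of complex II, 8 of complex III, 20 of complex IV, 15 of complex V, cytochrome c itself and 2 genes, Atp5s and Atp5sl, that encode no standard subunit. Ndufa4 and Ndufa4l2 carry complex I names but were counted with complex IV, where the protein of Ndufa4 is now placed.

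The 12 libraries formed 6 groups of 2. DAPT cells received 10 µg/ml of the γ-secretase inhibitor DAPT, which blocks release of the active Notch fragment, for 24 h, and their controls received DMSO. Apicidin cells received 0.01 µg/ml of the histone deacetylase inhibitor apicidin for 24 h, and had DMSO controls of their own. The shHdac3 cells carried a short hairpin RNA against the histone deacetylase gene Hdac3, their controls carried a scrambled hairpin, and both were collected 96 h after puromycin was added. All groups come from 1 cell line. The labels do not say whether replicates were separate cultures, so the spread that p-values measure is that between libraries and may be technical.

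Oxidative phosphorylation takes place in the mitochondrial inner membrane. Complexes I and II pass electrons from NADH and succinate to ubiquinone, complex III passes them on to cytochrome c, and complex IV hands them to oxygen. Complexes I, III and IV pump protons, and complex V, the ATP synthase, uses the proton gradient to make ATP. Most subunits are encoded in the nucleus and imported, while a few core subunits come from mitochondrial DNA. The nuclear factors NRF1, GABPA and YY1 are textbook activators of this gene set, and MYC can raise mitochondrial genes in growing lymphoid cells.

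Library depth, as reads counted in genes, was 37237080 to 42815304 for DAPT and its controls, 21766984 to 29652001 for apicidin and its controls, and 24673559 to 29004315 for both hairpins. The members took between 0.884% and 1.18% of these reads. The 11 pre-T markers summed to 120307 and 122098 normalised reads with DAPT against 170008 and 173221 with DMSO, to 72826 and 71928 with apicidin against 107381 and 107597 with DMSO, and to 88358 and 88923 in shHdac3 cells against 116714 and 116634 in scrambled cells. These sums are dominated by a few genes, and single markers differed: Thy1 had 20500 and 21353 with DAPT against 16189 and 15746 with DMSO, Cd8a had 3895 and 3830 against 2835 and 2778, and Il2ra had 361 and 362 in shHdac3 cells against 356 and 342 in scrambled cells. The markers of other cell types were low apart from Itgam and Acta1. Erythroid markers were listed at 0 in every library, B cell markers reached at most 12.3 and epithelial markers at most 20.4. The 4 fibroblast markers summed to 80.2 and 82.3 with DAPT against 36.9 and 31.3 with DMSO, and to 49.2 and 42.7 with apicidin against 28.4 and 22.9 with DMSO, with Col1a2 as the main source, while Col3a1 and Pdgfra did not exceed 2.73. The 4 myeloid markers, nearly all from Itgam, summed to 534 and 466 with DAPT against 242 and 247 with DMSO, and to 797 and 751 with apicidin against 534 and 507 with DMSO. Lyz2 and Csf1r did not exceed 9.19. Acta1 had 3266 and 3337 with DAPT against 2887 and 2848 with DMSO, 2302 and 2252 with apicidin against 2096 and 2071 with DMSO, and 2301 and 2297 in shHdac3 cells against 1983 and 1932 in scrambled cells. Of the other muscle markers Ckm, Myh7 and Tnnt2 did not exceed 2.05, and Myh2 was listed at 0. The part of these marker changes in the results was not tested. Hdac3 itself stood at 774 and 819 in shHdac3 cells, against 2012 and 1930 in scrambled cells.

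Promoters were examined because the members share known regulators. RefSeq promoter sequences on GRCm38.p6 ran from 250 bases before to 50 bases after the transcription start. They were matched for 77 of the 93 members, giving 83 promoters. For 74 of these 83, the last 30 bases lay in a transcript of the same gene in the GENCODE M21 annotation. The motifs searched on both strands were GCGCA, any base and GCGC in a row for NRF1, CCGGAAG for ETS factors such as GABPA, AAGATGG with CGG directly after it for YY1, CACGTG for the E-box that MYC binds, and TGGGAA for RBPJ, the DNA-binding partner of Notch. The NRF1 motif was present in 19 of 80 promoters of members tested in any experiment (23.8%), against 9.76% of the promoters of all genes tested and 4.60% of all RefSeq promoters. The YY1 motif was present in 8.75% of the members' promoters, against 1.96% and 0.852%. The ETS motif stood at 21.3% against 17.3% and 8.86%, the E-box at 11.3% against 9.77% and 7.15%, and the RBPJ motif at 20% against 23.1% and 25.6%. Overlaps between motifs were not removed. A match describes the letters in this window and is not evidence of binding.

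The first set of promoters belongs to the 3 genes for subunit c, which forms the rotating ring of complex V. Their mature proteins are the same. The changes of their transcripts are given below, and the difference between the 3 genes was not tested. The Atp5g1 promoter (GRCm38.p6, chr11:96075582-96075881, minus strand) holds an E-box that begins 44 bases before the start. The Atp5g2 promoter (chr15:102670998-102671297, minus strand) holds an NRF1 motif 42 bases before the start. The Atp5g3 promoter (chr2:73911277-73911576, minus strand) holds an E-box 238 bases before and an NRF1 motif 12 bases after the start. Capitals mark these matches.
Atp5g1: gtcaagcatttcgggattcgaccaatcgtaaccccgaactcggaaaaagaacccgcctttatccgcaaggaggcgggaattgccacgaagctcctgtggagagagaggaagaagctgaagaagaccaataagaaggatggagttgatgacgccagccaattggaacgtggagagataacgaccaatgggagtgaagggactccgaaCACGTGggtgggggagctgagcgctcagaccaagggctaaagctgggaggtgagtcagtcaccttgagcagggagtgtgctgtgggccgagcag
Atp5g2: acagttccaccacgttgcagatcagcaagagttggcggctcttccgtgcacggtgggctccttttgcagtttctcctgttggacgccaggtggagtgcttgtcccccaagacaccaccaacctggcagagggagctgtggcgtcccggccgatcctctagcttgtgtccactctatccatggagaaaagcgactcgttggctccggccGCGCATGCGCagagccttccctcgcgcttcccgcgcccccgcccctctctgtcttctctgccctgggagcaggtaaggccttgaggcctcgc
Atp5g3: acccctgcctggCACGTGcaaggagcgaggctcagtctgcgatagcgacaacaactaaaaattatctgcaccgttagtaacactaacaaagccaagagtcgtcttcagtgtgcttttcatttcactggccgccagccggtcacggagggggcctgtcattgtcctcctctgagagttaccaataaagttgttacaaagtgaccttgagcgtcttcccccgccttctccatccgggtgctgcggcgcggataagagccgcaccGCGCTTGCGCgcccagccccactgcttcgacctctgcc

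The second set belongs to 4 members whose changes set the comparisons apart: Ndufaf4, with the largest fall after DAPT; Sdhd, which was called in opposite directions with DAPT and shHdac3; Atp5h, called higher with apicidin; and Cox7a2l, the single member called higher with DAPT. Ndufaf4 (chr4:24897833-24898132, plus strand) has an NRF1 motif 113 bases before the start. Sdhd (chr9:50603800-50604099, minus strand) has an NRF1 motif 79 bases and an ETS motif 46 bases before the start. Atp5h (chr11:115419870-115420169, minus strand) has an NRF1 motif 141 bases and an ETS motif 38 bases before the start. Cox7a2l (chr17:83514284-83514583, minus strand) has none of the 5 motifs in this window. In GENCODE M21 the gene extends upstream of this window, to 83517330, and sequence around that end is not shown. Capitals mark NRF1 and ETS matches.
Ndufaf4: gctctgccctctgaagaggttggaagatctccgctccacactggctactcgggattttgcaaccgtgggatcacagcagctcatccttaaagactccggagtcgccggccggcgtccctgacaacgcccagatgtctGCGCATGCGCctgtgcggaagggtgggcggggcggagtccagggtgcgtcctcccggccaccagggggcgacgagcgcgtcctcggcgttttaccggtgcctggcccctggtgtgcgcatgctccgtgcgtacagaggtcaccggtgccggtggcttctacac
Sdhd: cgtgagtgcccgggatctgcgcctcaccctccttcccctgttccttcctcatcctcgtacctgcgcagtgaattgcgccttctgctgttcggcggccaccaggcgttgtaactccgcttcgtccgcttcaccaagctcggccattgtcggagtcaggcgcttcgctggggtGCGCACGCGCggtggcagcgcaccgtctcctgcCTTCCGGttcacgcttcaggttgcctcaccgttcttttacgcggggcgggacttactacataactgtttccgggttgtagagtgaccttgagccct
Atp5h: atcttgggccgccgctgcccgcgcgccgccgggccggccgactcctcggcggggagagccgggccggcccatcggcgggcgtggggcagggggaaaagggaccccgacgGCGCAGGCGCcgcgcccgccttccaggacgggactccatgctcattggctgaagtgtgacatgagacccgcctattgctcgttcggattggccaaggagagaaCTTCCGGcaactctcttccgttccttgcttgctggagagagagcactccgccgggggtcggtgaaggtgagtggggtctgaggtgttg
Cox7a2l: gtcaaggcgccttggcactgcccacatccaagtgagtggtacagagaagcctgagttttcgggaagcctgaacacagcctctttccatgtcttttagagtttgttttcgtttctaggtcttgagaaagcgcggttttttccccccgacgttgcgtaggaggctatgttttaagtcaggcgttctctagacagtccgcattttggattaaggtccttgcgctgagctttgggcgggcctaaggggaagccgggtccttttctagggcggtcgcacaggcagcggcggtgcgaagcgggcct

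Nearly all members were measurable. The threshold for testing, 10 normalised reads in 2 or more libraries out of the 4 in an experiment, was reached by 87 members in the DAPT experiment, 88 in the apicidin experiment and 87 in the hairpin experiment. The genes below this level were mainly tissue-restricted forms of complex IV subunits. Cox7b2 and Cox8c were listed at 0 in all libraries, Cox8b, the heart and muscle form, did not exceed 3.13, and Cox4i2, the lung and hypoxia form, did not exceed 9.23. Ndufa4l2, a hypoxia-linked relative of Ndufa4, passed in the apicidin experiment alone. Ndufs5, a ubiquitous complex I subunit, was also listed at 0 in every library. A processed pseudogene, BC002163, matches 60.8% of the Ndufs5 transcript at 99.4% identity, and how the authors' counting treated the pair is not known.

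Median levels per kilobase of transcript differed between the complexes. In DMSO controls of the DAPT experiment the median was 10074 normalised reads per kb for complex V and 9355 for complex IV, against 5166 for complex III, 3941 for complex II and 3400 for complex I. The Ndufaf assembly factor genes lay lower, at a median of 418 per kb. The highest member was Atp5b, the catalytic β subunit of ATP synthase, at 34262 per kb. Cycs, cytochrome c, stood at 2231 per kb. The same order of complex V, complex IV, complex III, complex II and complex I held in the DMSO controls of the apicidin experiment (4877, 4448, 2497, 1893 and 1745) and in scrambled cells (5215, 4414, 2531, 1894 and 1771). Neighbouring medians were close for complexes I and II and for complexes IV and V. Members ranged widely within each complex. In the first group complex I ran from 1344 to 7940 per kb, complex IV from 107 to 18671 and complex V from 3925 to 34262. Each experiment carries its own scaling, so levels are compared within an experiment.

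The DAPT comparison asks how the genes respond to loss of Notch signalling. The oxidative phosphorylation genes fell broadly by a small amount. Of the 87 members tested with limma at an adjusted p of 0.05, 62 were called lower (71.3%) and 1 higher (1.15%). Across all genes tested 43.2% were called, 23.1% lower and 20.1% higher. The members' median log2 fold change was -0.16, against 0.00 for all genes. In 75 of the 87 members both DAPT libraries lay below both DMSO libraries, as they did in 35.5% of all genes tested. Summed over all members, the normalised reads were 423965 and 416860 with DAPT, against 476334 and 476459 with DMSO, a difference of -11.8%. In bulk RNA, fewer cells of a type and less RNA per cell cannot be told apart. Because most members are abundant, and small changes are easier to call in abundant genes, a comparison with all genes at a mean of 1000 or more was added after the values were seen. There, 76.3% of the members were called lower, against 34.3% of all genes.

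The Ndufaf4 gene, which encodes a complex I assembly factor, changed most. It had 785 and 762 normalised reads with DAPT, against 1164 and 1196 with DMSO, and fell by 0.61 ± 0.06 (SE) on the log2 scale (adjusted p = 1.1e-08). The groups lay far apart. Other assembly factor genes fell too: Ndufaf6 (-0.43 ± 0.10, adjusted p = 0.00078), Ndufaf5 (-0.29 ± 0.08, adjusted p = 0.0053) and Ndufaf1 (-0.18 ± 0.06, adjusted p = 0.025). The calls of Ndufaf5 and Ndufaf1 were lost in DESeq2 (adjusted p = 0.078 and 0.18) and without DAPT replicate 2 (adjusted p = 0.079 and 0.19). Ndufaf2, Ndufaf3 and Ndufaf7 were not called.

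Complex I fell in 25 of its 35 tested members. Ndufa12, an accessory subunit at the matrix arm, had 2964 and 3065 normalised reads with DAPT, against 4131 and 4119 with DMSO, and fell by 0.45 ± 0.04 (adjusted p = 4.0e-09). In the matrix arm, which oxidises NADH, 13 of 16 genes fell, including Ndufa5 (-0.38), Ndufs1 (-0.27) and Ndufv1 (-0.21). In the proton-pumping membrane arm 11 of 18 fell, including Ndufb4 (-0.32) and Ndufa10 (-0.29). Ndufab1, the mitochondrial acyl carrier protein present in both arms, fell by 0.38 ± 0.05. Ndufb11 and Ndufa6 lay slightly above their controls in both DAPT libraries and were not called (0.02 and 0.08).

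All 4 genes of complex II, succinate dehydrogenase, fell. The membrane anchor gene Sdhd had 4725 and 4870 normalised reads with DAPT, against 5792 and 5669 with DMSO (-0.26 ± 0.04, adjusted p = 8.3e-06). The flavoprotein gene Sdha changed by -0.22 ± 0.04 (adjusted p = 7.0e-05), the second anchor gene Sdhc by -0.14 ± 0.04 (adjusted p = 0.0079) and the iron-sulfur gene Sdhb by -0.11 ± 0.04 (adjusted p = 0.028). The Sdhc call was lost without DAPT replicate 2 (adjusted p = 0.13) and the Sdhb call in DESeq2 (adjusted p = 0.089), with upper-quartile scaling and without either DAPT library. In complex III, 7 of 8 genes fell. The small subunit gene Uqcrq had 1827 and 1787 with DAPT, against 2342 and 2277 with DMSO (-0.35 ± 0.05, adjusted p = 1.0e-06). Uqcr11 (-0.28 ± 0.04) and Uqcr10 (-0.26 ± 0.04), which also encode small subunits, followed. Uqcrh, the hinge protein gene, was level at -0.02 ± 0.04 (adjusted p = 0.72).

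Cycs, the mobile carrier between complexes III and IV, had 5577 and 5369 normalised reads with DAPT, against 6698 and 7238 with DMSO. It fell by 0.35 ± 0.04 (adjusted p = 3.5e-07), without overlap of the groups.

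Complex IV moved least in sum. Its summed value was 76042 and 74433 with DAPT, against 80017 and 79088 with DMSO (-5.42%), while the sums of complexes I, II, III and V differed by -10.6%, -12.5%, -11.7% and -14.4%. Of the 11 ubiquitous subunit genes of complex IV, 8 fell, led by Ndufa4 (-0.21 ± 0.04), Cox7b (-0.20 ± 0.04) and Cox5a (-0.19 ± 0.04). Cox4i1 (-0.03 ± 0.04) and Cox8a (-0.01 ± 0.05) were not called. Cox7a2l, whose protein joins complexes III and IV into supercomplexes, went the other way. It had 8466 and 8376 normalised reads with DAPT, against 7572 and 7504 with DMSO, a rise of 0.16 ± 0.04 (adjusted p = 0.00091).

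Complex V fell in 13 of 15 genes, among them all 5 genes of the catalytic F1 head. Atp5b had 54013 and 52652 normalised reads with DAPT, against 66111 and 65180 with DMSO (-0.30 ± 0.04, adjusted p = 1.8e-06). Atp5a1, the α subunit, changed by -0.22 ± 0.04 (adjusted p = 5.9e-05). In the membrane and stalk part 8 of 10 genes fell. Atp5g1 had 4038 and 3838 with DAPT, against 5510 and 5391 with DMSO (-0.47 ± 0.04, adjusted p = 1.8e-09). Its partners for the same mature protein changed less in these values, Atp5g2 by -0.25 ± 0.04 (adjusted p = 4.4e-06) and Atp5g3 by -0.23 ± 0.04 (adjusted p = 1.6e-05). The difference between the 3 subunit c genes was not tested. Atp5h (0.02 ± 0.04) and Atp5j2 (-0.06 ± 0.04) were not called.

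**Figure D1:**
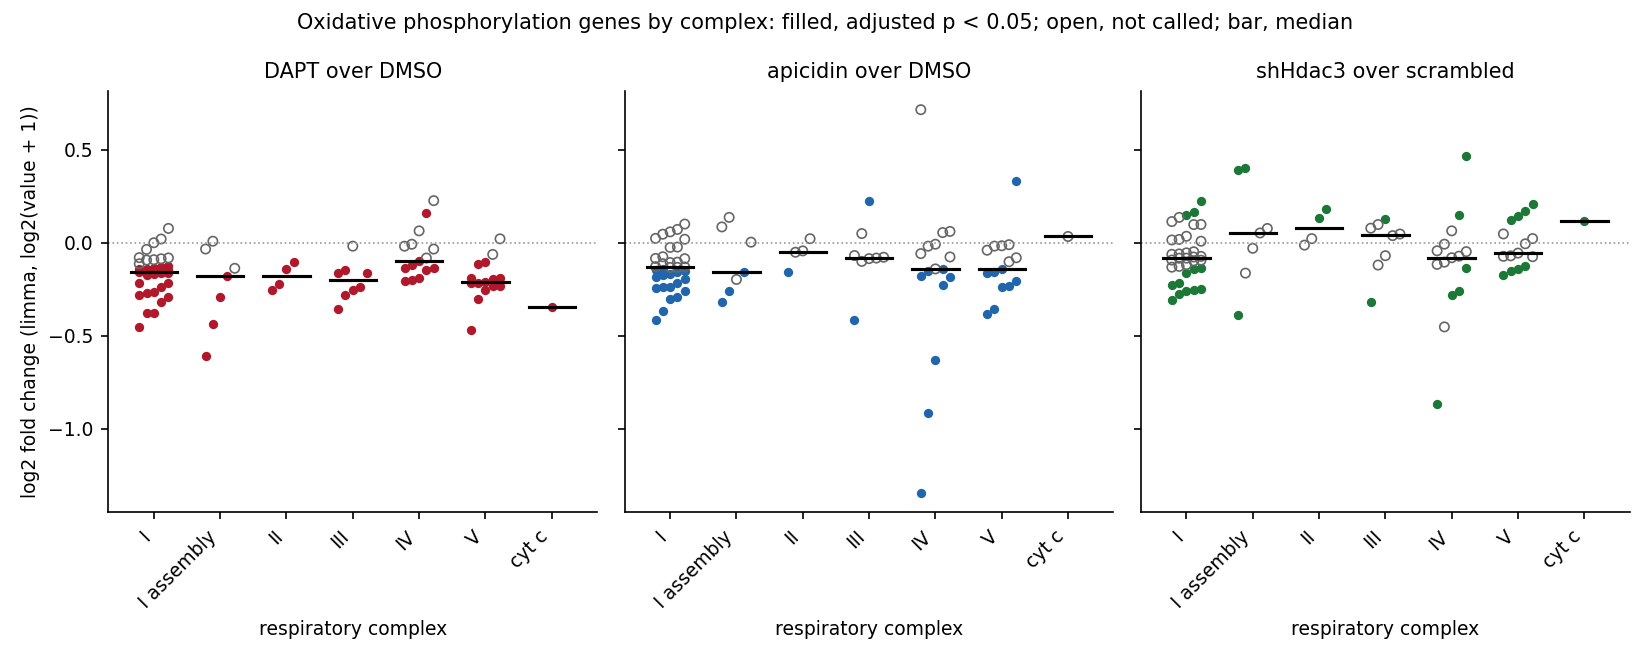
Log2 fold change of each tested member (points) by complex in the 3 experiments, from limma on log2(value + 1); filled points passed an adjusted p of 0.05, open points did not, bars are medians, and Atp5s and Atp5sl are left out. With DAPT most points lie below 0, with apicidin complex IV spreads from -1.35 to 0.72, and with shHdac3 filled points lie on both sides of 0. The top apicidin point of complex IV is Ndufa4l2, which was not called and had a mean of only 9.58 normalised reads.

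**Figure D2:**
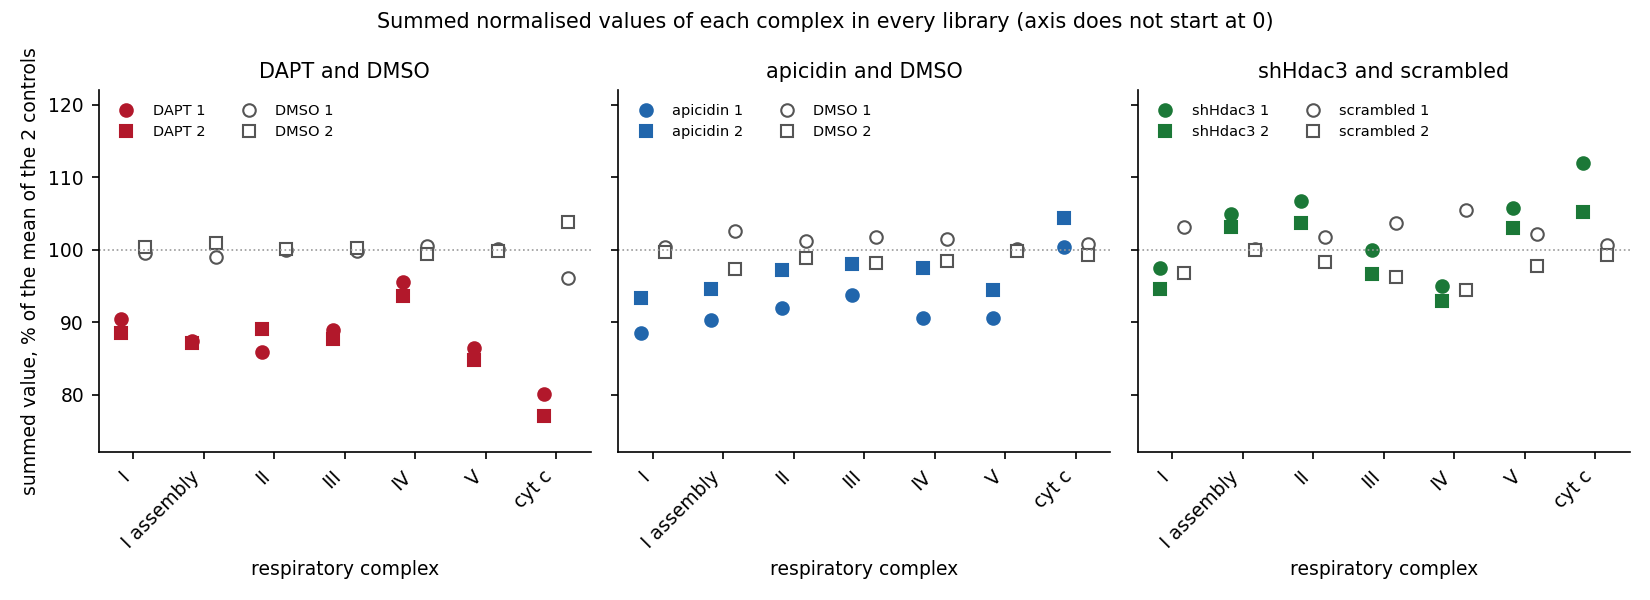
Summed normalised reads of each complex in every library, as a percentage of the mean of the 2 controls of the experiment; filled symbols are treated libraries, open symbols controls, circles replicate 1 and squares replicate 2, and the axis does not start at 0. Both DAPT libraries lie below both DMSO libraries in every complex shown, whereas shHdac3 and scrambled libraries overlap for complexes I, III and IV.

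Of the 62 calls of lower expression with DAPT, 38 held in all 15 alternatives of test, scaling, filter, pseudocount, replicate block and left-out library. The number of lower calls was 39 without DAPT replicate 2 and 49 in the authors' deposited table.

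With apicidin the members also leaned downwards, in fewer genes. Of 88 tested, 38 were called lower (43.2%) and 2 higher (2.27%), while 38.1% of all genes tested were called, 19.9% lower and 18.2% higher. The median log2 fold change was -0.12, against 0.00 for all genes. Summed over members, the normalised reads were 220574 and 232075 with apicidin, against 245224 and 242044 with DMSO (-7.10%). The count rests partly on 1 library: without apicidin replicate 1 it was 17 lower and 2 higher, and the authors' deposited table gave 23 lower and 1 higher. Of the 38 lower calls 15 held in all alternatives. Among genes at a mean of 1000 or more, 47.8% of the members were called lower, against 25.9% of all genes.

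The 3 lowest log2 fold changes belonged to low-level, tissue-restricted isoforms of complex IV. Cox6a2, the heart and muscle form of subunit 6a, had 65.6 and 81.9 normalised reads with apicidin, against 185 and 191 with DMSO (-1.35 ± 0.15, adjusted p = 2.2e-06). The groups were well separated. Cox7a1, the heart and muscle form of subunit 7a, had 28.4 and 20.9 with apicidin, against 56.8 and 38.7 with DMSO (-0.91 ± 0.27, adjusted p = 0.013). Cox6b2, described as a testis form, had 55.8 and 70.9 with apicidin, against 104.5 and 91.4 with DMSO (-0.63 ± 0.18, adjusted p = 0.011). The calls of Cox7a1 and Cox6b2 were lost in DESeq2 (adjusted p = 0.13 for each). Of the exonic bases of Cox6a2 10.3% overlap Itgad on the opposite strand, so reads over those bases could be shared if counting ignored strand.

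Among complex I genes 17 of 35 fell with apicidin, 10 of 16 in the matrix arm and 7 of 18 in the membrane arm. Ndufs8, an iron-sulfur subunit of the matrix arm, had 1408 and 1353 normalised reads with apicidin, against 1838 and 1839 with DMSO (-0.41 ± 0.05, adjusted p = 2.6e-06). The membrane arm gene Ndufb11 had 1490 and 1640 with apicidin, against 2058 and 1978 with DMSO (-0.37 ± 0.05, adjusted p = 2.4e-05). The assembly factor genes Ndufaf5 (-0.32 ± 0.12, adjusted p = 0.045) and Ndufaf3 (-0.26 ± 0.09, adjusted p = 0.028) also fell, and both calls were lost in DESeq2 (adjusted p = 0.27 and 0.19). In complex II Sdha alone was called (-0.16 ± 0.04, adjusted p = 0.0056), with Sdhb at 0.02, Sdhc at -0.04 and Sdhd at -0.05, and Sdha did not pass once apicidin replicate 1 was left out (adjusted p = 0.095).

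With apicidin the sums of complexes I, II, III, IV and V differed by -9.08%, -5.41%, -4.08%, -6.03% and -7.46%. Both apicidin libraries lay below both DMSO libraries in each, narrowly so in complex III (20755 against 20781 for the nearest pair). Within complexes III and V single members moved apart from one another. In complex III Uqcrb, a ubiquinone-binding subunit gene, fell by 0.42 ± 0.07 (665 and 769 with apicidin, against 971 and 939 with DMSO, adjusted p = 0.00011), whereas Uqcrq rose by 0.23 ± 0.05 (1188 and 1216 against 1065 and 992, adjusted p = 0.0032), a call lost in DESeq2 (adjusted p = 0.055). The other 6 genes of complex III were not called. In complex V Atp5g2 fell by 0.38 ± 0.04 (4811 and 5036 with apicidin, against 6220 and 6638 with DMSO, adjusted p = 3.0e-06). Atp5j2, the gene of the f subunit, fell by 0.36 ± 0.06 (1572 and 1708 against 2233 and 1973, adjusted p = 0.0001). Atp5b, Atp5c1, Atp5e, Atp5g1, Atp5k and Atp5o were also called lower, and Atp5h alone in complex V was called higher. Atp5h, the gene of the stalk subunit d, rose by 0.33 ± 0.04. It had 6850 and 7109 with apicidin, against 5630 and 5448 with DMSO (adjusted p = 7.5e-06), and this call held in all alternatives. Cycs was level at 0.03 ± 0.04 (adjusted p = 0.59).

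With shHdac3 the members were called about as often as other genes. Of 87 tested, 20 were called lower (23.0%) and 15 higher (17.2%). Across all genes tested 41.9% were called, 19.4% lower and 22.5% higher. The members' median was -0.06, against 0.00 for all genes. Their summed value was 243731 and 237154 in shHdac3 cells, against 247797 and 232885 in scrambled cells, and the 2 scrambled libraries enclosed both shHdac3 libraries. Among genes at a mean of 1000 or more, 25% of the members were lower and 17.6% higher, against 16.6% lower and 41.4% higher of all genes. The balance of calls changed with the library left out: without scrambled replicate 1 there were 15 higher and 10 lower, without scrambled replicate 2 there were 8 higher and 28 lower, and without shHdac3 replicate 1 there were 8 higher. With upper-quartile scaling 8 were higher and 35 lower, while the share of all called genes that were higher was 43.5% in place of 53.8%, and the authors' deposited table held 7 higher and 10 lower.

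The higher calls that held in all alternatives were Ndufaf4, Ndufaf1, Ndufa10 and Cox6a2. Ndufaf4 had 645 and 612 normalised reads in shHdac3 cells, against 476 and 483 in scrambled cells (0.39 ± 0.07, adjusted p = 2.3e-05). Ndufaf1, which encodes another complex I assembly factor, had 505 and 475 in shHdac3 cells, against 358 and 383 in scrambled cells (0.40 ± 0.08, adjusted p = 8.9e-05). The groups did not overlap for either gene. The membrane arm gene Ndufa10 rose by 0.23 ± 0.05 (adjusted p = 0.00037). Cox6a2 had 301 and 291 in shHdac3 cells, against 226 and 204 in scrambled cells, and rose by 0.47 ± 0.11 (adjusted p = 0.00034).

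Lower calls that held in all alternatives numbered 9: Cox6b2, Cox7a2l, Cox7c, Ndufa6, Ndufa7, Ndufaf3, Ndufb11, Ndufv3 and Uqcrh. Cox6b2 had 139 and 98.1 normalised reads in shHdac3 cells, against 218 and 209 in scrambled cells (-0.87 ± 0.14, adjusted p = 1.7e-06). Ndufaf3, also an assembly factor gene, had 316 and 307 in shHdac3 cells, against 403 and 413 in scrambled cells (-0.39 ± 0.09, adjusted p = 0.00034). Thus assembly factor genes of complex I were called in both directions. Uqcrh had 3568 and 3419 in shHdac3 cells, against 4691 and 4058 in scrambled cells (-0.32 ± 0.05, adjusted p = 6.9e-07). Cox7c, a small complex IV subunit gene, fell by 0.28 ± 0.05 (adjusted p = 2.3e-05).

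By complex, the sums of shHdac3 cells overlapped those of scrambled cells for complexes I, III and IV. Complex II was higher at 12512 and 12153 in shHdac3 cells, against 11917 and 11514 in scrambled cells (5.27%). Sdhb stood at 0.18 ± 0.05 (adjusted p = 0.0018) and Sdhd at 0.13 ± 0.05 (adjusted p = 0.028). Sdha and Sdhc were not called, at 0.02 and -0.01 in the authors' deposited values. The Sdhb call was lost without shHdac3 replicate 1 (adjusted p = 0.070) and the Sdhd call in DESeq2 (adjusted p = 0.21). Complex V was higher at 105715 and 102942, against 102106 and 97728 with the scrambled hairpin (4.42%). That sum rests on its 2 most abundant genes, a split made after the values were seen. Atp5a1 and Atp5b together had 57168 and 55599 in shHdac3 cells, against 51134 and 50289 in scrambled cells (11.2%). The other 13 genes of complex V had 48547 and 47343 with shHdac3, against 50972 and 47439, and the groups overlapped in range at -2.56%. The Atp5b call was lost in 6 alternatives, from a value of 0.14 ± 0.05 (adjusted p = 0.033).

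**Figure D3:**
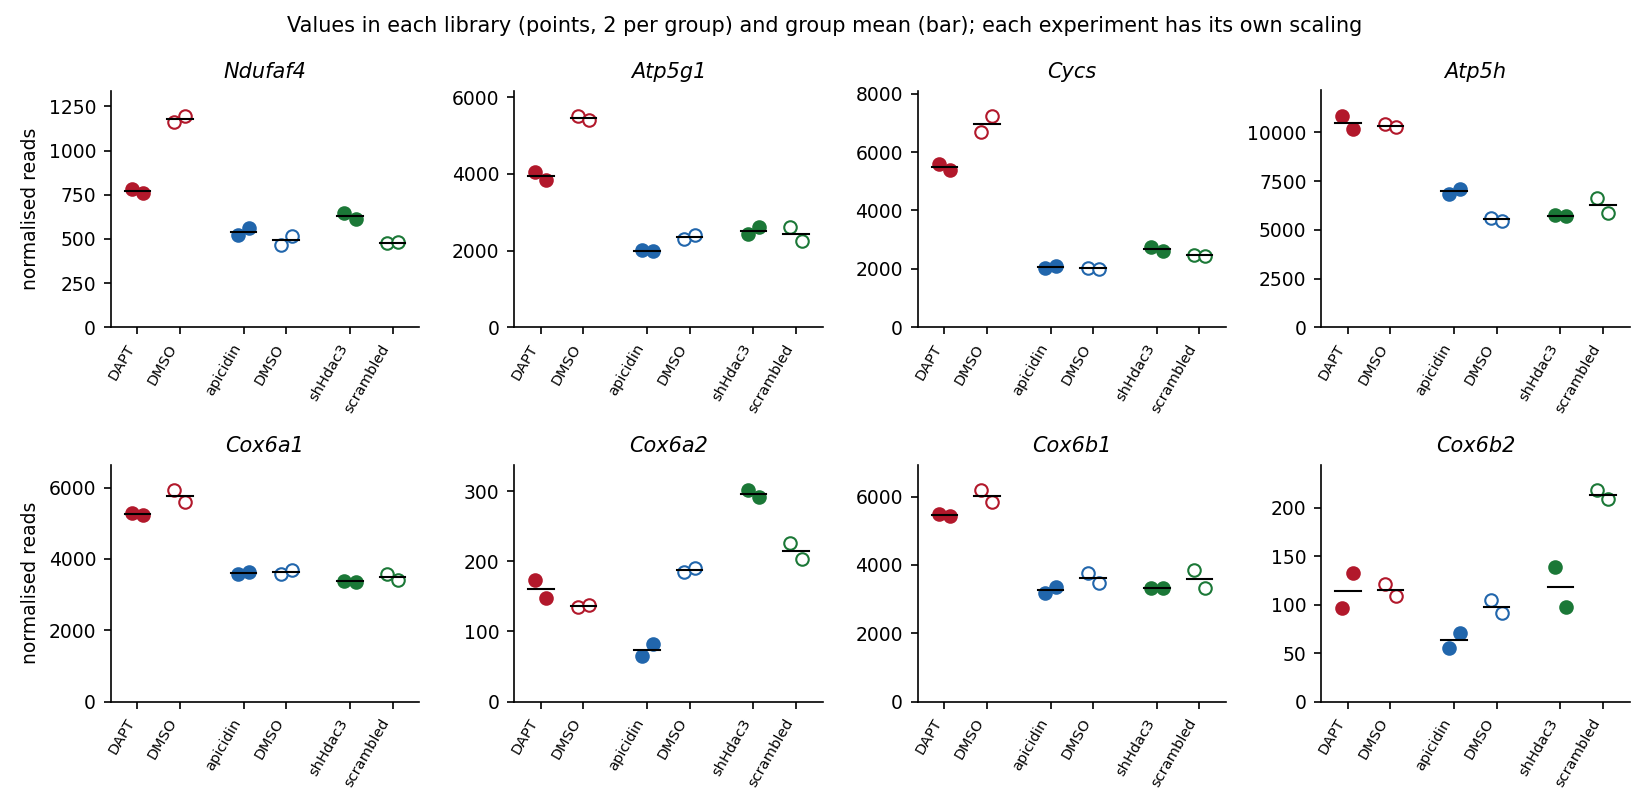
Normalised reads of 8 members in each of the 12 libraries, with filled points for treated and open points for control libraries, 2 per group, and a bar at the group mean; each experiment has its own scaling, so heights are compared within a colour. Ndufaf4 is lower with DAPT and higher with shHdac3 than in its controls, Atp5h is higher with apicidin, and Cox6a2 is lower with apicidin and higher with shHdac3.

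The 3 experiments used separate controls, so the members' calls could be set side by side. Atp5e, Atp5k, Cox7c, Ndufa2, Ndufa7 and Ndufs8 were called lower in all 3 experiments, in which 71.3%, 43.2% and 23.0% of the members tested were lower. Nothing is read from the number of shared calls. Ndufa7, a small matrix arm gene, showed -0.26 ± 0.04 with DAPT, -0.24 ± 0.05 with apicidin and -0.31 ± 0.05 with shHdac3, and each call held in all alternatives. The other 5 genes each lost 1 or more of these calls in some alternative. The calls of Atp5k with apicidin (-0.14 ± 0.05, adjusted p = 0.049) and shHdac3 (-0.14 ± 0.06, adjusted p = 0.047) lay at the threshold. Of the DAPT-lowered members 23 were also lowered with apicidin, which is 37.1% of the DAPT list and 60.5% of the apicidin list. The second share lies below the 71.3% of all tested members that were lower with DAPT.

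Calls with DAPT and shHdac3 were set side by side. Of the 15 members called higher with shHdac3, 14 were called lower with DAPT: Atp5a1, Atp5b, Atp5f1, Atp5j, Cycs, Ndufa10, Ndufa4, Ndufaf1, Ndufaf4, Ndufc2, Ndufv1, Sdhb, Sdhd and Uqcrc1. Among all members tested 71.3% were lower with DAPT, the share against which this count is read, and of these 14 only Ndufa10, Ndufaf1 and Ndufaf4 kept their shHdac3 call in all alternatives. Of the 20 members called lower with shHdac3, 8 were also lower with DAPT (40%). Cox7a2l was higher with DAPT and lower with shHdac3 (-0.26 ± 0.05, adjusted p = 8.8e-06). In a test of the difference itself, the DAPT response lay below the shHdac3 response in 31 members and above it in 6, with 43.8% of all genes tested called, 23.8% below and 20% above. The gap was widest for Ndufaf4 at -1.01 ± 0.09 (adjusted p = 6.1e-09). Ndufa12 (-0.56 ± 0.07), Ndufa10 (-0.52 ± 0.06) and Cycs (-0.47 ± 0.06) followed among the smallest adjusted p-values. Of these 31 members 26 held in all 17 alternatives. DAPT acted for 24 h and the hairpin cells were taken 96 h after puromycin, so time and treatment cannot be told apart.

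**Figure D4:**
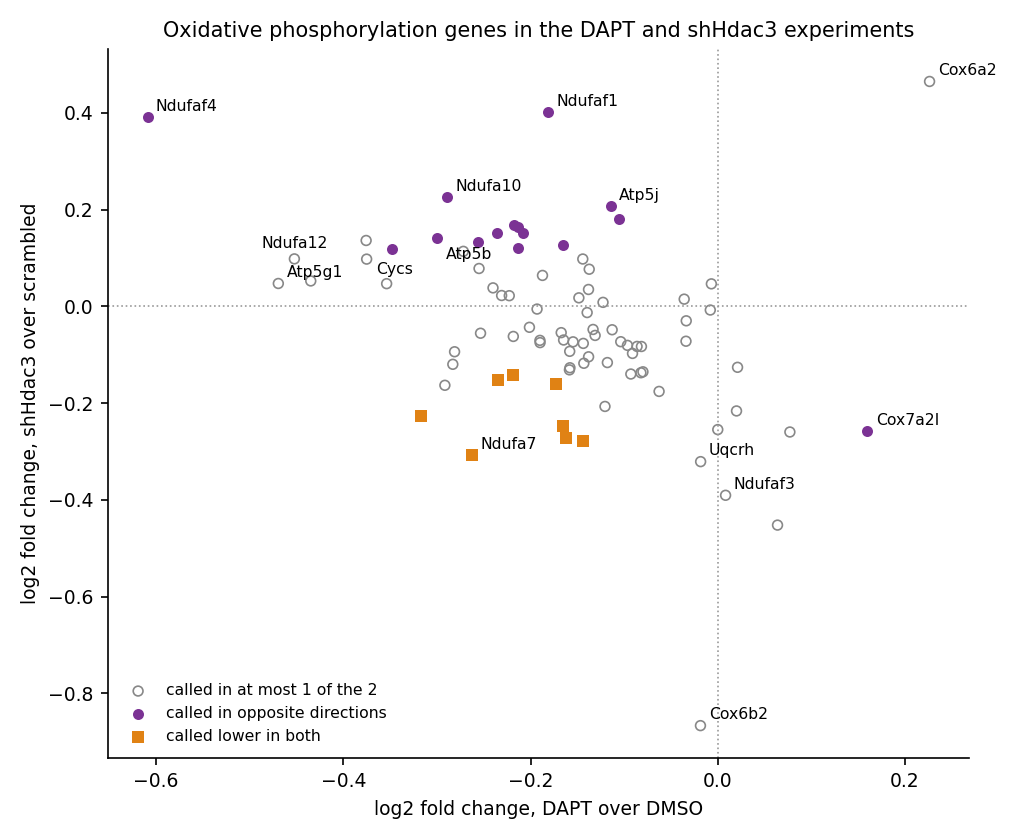
Log2 fold change of each member with DAPT (horizontal axis) and with shHdac3 (vertical axis), from limma; filled circles were called in opposite directions, squares were called lower in both, and open circles were called in at most 1 of the 2. The filled circles cluster at upper left, with Ndufaf4 at -0.61 and 0.39 farthest out, and Cox7a2l lies at lower right.

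The DAPT response lay below the apicidin response in 22 members and above it in 7, with 34.8% of all genes tested called, 18.8% below and 16% above. The count below was 14 without apicidin replicate 2. Cox6a2 was farthest above, at 1.56 ± 0.18 (adjusted p = 4.1e-07), followed in adjusted p by Ndufaf4 (-0.76 ± 0.09), Uqcrq (-0.59 ± 0.08) and Cycs (-0.39 ± 0.06). Uqcrq, a small complex III subunit gene, was thus called lower with DAPT and higher with apicidin. The apicidin response lay below the shHdac3 response in 18 members and above it in 4, with 33.4% of all genes tested called, 18.3% below and 15.1% above. The count below was 9 without apicidin replicate 1, 9 without shHdac3 replicate 1 and 10 without scrambled replicate 2, and the count above was 2 without apicidin replicate 2, scrambled replicate 1 or shHdac3 replicate 2. Although both treatments act on histone deacetylases, Cox6a2 fell with apicidin and rose with shHdac3, and the difference was -1.81 ± 0.18 (adjusted p = 6.0e-08). Atp5h was higher with apicidin and lower with shHdac3 (-0.13 ± 0.05, adjusted p = 0.028), though the shHdac3 call was lost in DESeq2 (adjusted p = 0.13), with no filter, and without scrambled replicate 1 or shHdac3 replicate 2. The difference between the responses was 0.46 ± 0.07 (adjusted p = 9.6e-06). Atp5g2 (-0.32 ± 0.06) and the matrix arm gene Ndufv3 (0.38 ± 0.07) completed the 4 smallest adjusted p-values.

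Subunits with alternative forms were compared as sets. The ubiquitous Cox6a1 had 10107 normalised reads per kb in the DMSO controls of the DAPT experiment, against 201 per kb for Cox6a2, and the ubiquitous Cox6b1 had 9742 against 247 for Cox6b2. In the same cells Cox7a2 stood at 9355 and Cox7a1 at 107 per kb. The restricted forms thus changed at levels far below their ubiquitous partners. With apicidin Cox6a1 was at -0.01 ± 0.04 (adjusted p = 0.90) and Cox6b1 at -0.15 ± 0.05 (adjusted p = 0.017, but 0.095 in DESeq2), and with shHdac3 they were at -0.05 ± 0.05 and -0.10 ± 0.05, neither called. For subunit c the order per kb in DMSO controls was Atp5g2 (26722), Atp5g3 (13840) and Atp5g1 (9146). Atp5g1 fell most of the 3 with DAPT, Atp5g2 fell with apicidin by 0.38 while Atp5g3 stayed at -0.02 ± 0.04 (adjusted p = 0.79), and none was called with shHdac3 (0.05, -0.06 and 0.02). Processed pseudogenes match Atp5g1 at 99.8% and Atp5g2 at 100% identity over much of their transcripts, so reads could be shared with them.

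Other mitochondrial gene lists, all chosen with earlier results of these data known, were read beside the members. Their counts are read against all genes tested, of which 23.1% were called lower and 20.1% higher with DAPT. These shares were 19.9% and 18.2% with apicidin, and 19.4% and 22.5% with shHdac3. With DAPT, 25 of 29 genes for mitochondrial protein import were called lower and 0 higher, at a median of -0.26. Among them were Timm10 (-0.74 ± 0.10, adjusted p = 3.0e-06) and Timm9 (-0.68 ± 0.07, adjusted p = 1.7e-08), which encode chaperones of the intermembrane space. With shHdac3 2 of the same 29 were called lower and 15 higher, at a median of 0.17, among them Hspa9, the matrix chaperone gene (0.34 ± 0.05, adjusted p = 4.1e-08). With apicidin 6 were lower and 3 higher.

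Of 19 genes of the TCA cycle, which supplies NADH and succinate, 14 were lower and 0 higher with DAPT, 4 lower and 0 higher with apicidin, and 2 lower and 5 higher with shHdac3. Suclg2, a subunit of succinyl-CoA ligase, had 2610 and 2484 normalised reads with DAPT, against 3664 and 3682 with DMSO (-0.53 ± 0.04, adjusted p = 6.5e-10). It was also lower with apicidin (-0.69 ± 0.05, adjusted p = 3.1e-08). With shHdac3 the pyruvate carboxylase gene Pcx fell by 0.82 ± 0.06 (adjusted p = 1.2e-16) and Dld, a shared dehydrogenase subunit gene, rose by 0.31 ± 0.05 (adjusted p = 2.7e-06). Of 13 coenzyme Q synthesis genes 9 were lower and 1 higher with DAPT, 2 lower and 0 higher with apicidin, and 2 lower and 3 higher with shHdac3. Of 34 tested assembly factor genes outside the Ndufaf names 18 were lower and 1 higher with DAPT, 7 lower and 5 higher with apicidin, and 4 lower and 9 higher with shHdac3. The carrier genes numbered 7 lower and 2 higher of 10 with DAPT, 3 lower and 1 higher of 9 with apicidin, and 2 lower and 4 higher of 9 with shHdac3. None of the 13 subunits encoded by mitochondrial DNA was found under the symbols searched, so they were not analysed here.

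Among 21 tested regulators of mitochondrial genes 8 were lower and 1 higher with DAPT, 5 lower and 3 higher with apicidin, and 0 lower and 4 higher with shHdac3. The shares of all genes tested were 23.1% lower and 20.1% higher with DAPT, 19.9% and 18.2% with apicidin, and 19.4% and 22.5% with shHdac3. Myc had 5061 and 5337 normalised reads with DAPT, against 9342 and 9047 with DMSO (-0.82 ± 0.04, adjusted p = 7.3e-14). Pprc1, a coactivator related to PGC-1, fell by 0.61 ± 0.06 with DAPT (adjusted p = 7.6e-09) and by 0.30 ± 0.05 with apicidin (adjusted p = 0.00029). Nrf1 was not called with DAPT (0.04, adjusted p = 0.44). With shHdac3 Nrf1 had 2307 and 2223, against 1759 and 1800 with the scrambled hairpin (0.35 ± 0.05, adjusted p = 8.2e-08), and Gabpa had 2213 and 2213, against 1828 and 1903 (0.25 ± 0.05, adjusted p = 4.4e-05). The part of these regulators in the members' changes was not tested. Of the 18 members with an NRF1 motif in the promoter 16 were lower with DAPT, at a median of -0.22, and of the 56 without one 37 were lower, at a median of -0.15. For the E-box 6 of 7 members with the motif were lower with DAPT at a median of -0.21, against 47 of 67 without it at -0.15. For RBPJ 13 of 15 were lower with DAPT at -0.19, against 40 of 59 without it at -0.15. With apicidin 9 of the 15 were lower at -0.15, against 23 of 59 at -0.11. With shHdac3 5 of the 15 were lower and 1 higher at -0.10, against 13 lower and 12 higher of 59 at -0.06. For the ETS motif 13 of 17 were lower with DAPT, against 40 of 57 without it, both at -0.16. For YY1 5 of 6 were lower with DAPT at -0.14, against 48 of 68 without it at -0.16. These splits cover members only and were not made for all genes tested. The part of the motifs in the changes was not tested. With apicidin 7 of the 18 members with an NRF1 motif and 25 of the 56 without were lower, both at a median of -0.13, and with shHdac3 4 of the 18 were lower and 3 higher.

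Transcript length went with the shHdac3 values. Of 27 members with transcripts up to 600 bases 10 were lower and 1 higher with shHdac3, whereas of 18 members over 1500 bases 1 was lower and 8 were higher. Of all genes tested 39.2% were lower and 5.50% higher up to 600 bases, and 18.1% were lower and 25.8% higher over 1500 bases. With apicidin 13 of the 27 shortest members were lower and 2 higher, and 7 of the 18 longest were lower and 0 higher. Up to 600 bases 37.2% of all genes were lower and 5.35% higher with apicidin. Over 1500 bases these shares of all genes were 18.3% and 20.4%. With shHdac3 the correlation of log2 length with log2 fold change was 0.40 across members (Pearson, n = 87), against 0.12 across all genes. It was 0.24 over the 69 members up to 1500 bases. With DAPT it was -0.22 across members and 0.05 across all genes, and with apicidin 0.18 and 0.12. These are descriptions across genes, which share libraries and are not independent replicates. With DAPT 18 of the 27 shortest and 15 of the 18 longest members were lower. Of all genes tested 23.3% were lower with DAPT up to 600 bases and 21.9% over 1500 bases. The part of length in the shHdac3 calls was not tested.

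**Figure D5:**
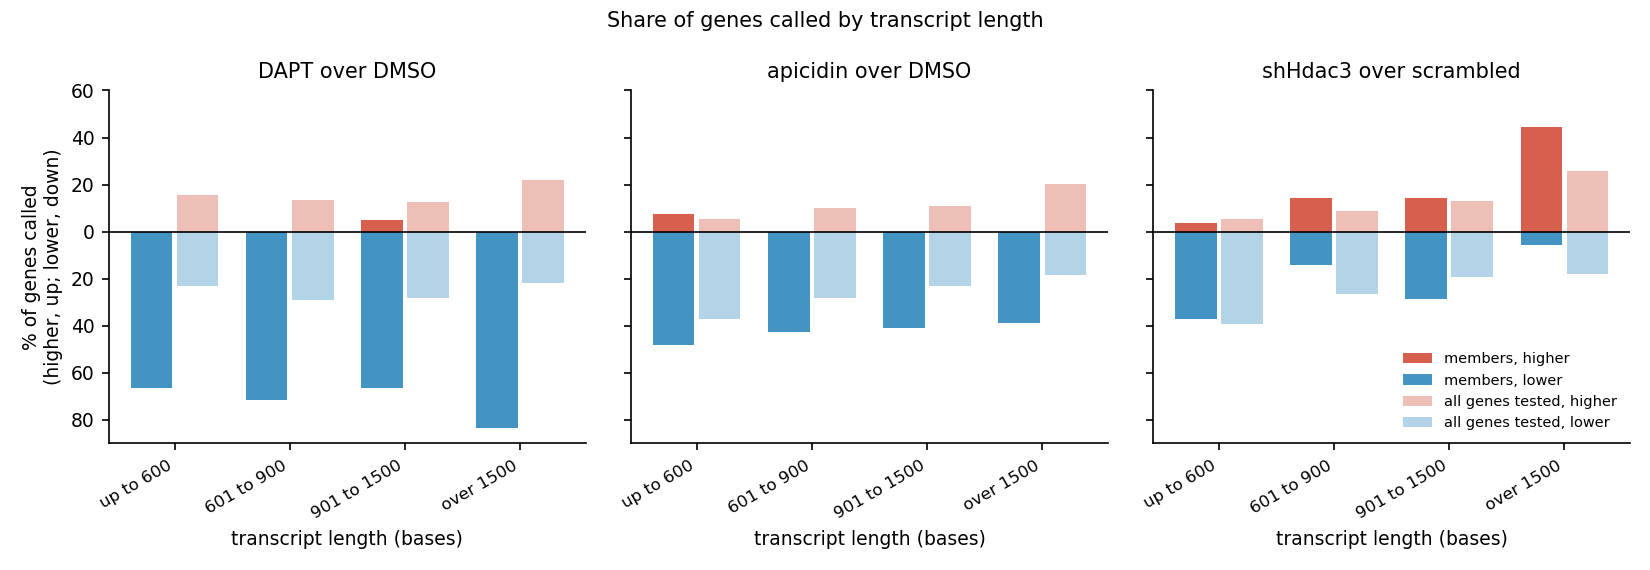
Percentage of genes called higher (upwards) and lower (downwards) by transcript length in bases, for members (solid) and all genes tested (pale) in the 3 experiments. With shHdac3 lower calls prevail among the shortest members and higher calls among the longest, and with DAPT lower calls prevail at every length.

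Sequence copies limit some values. A near-identical stretch in another annotated gene was found for 21 of the 93 members, among them Atp5g1, Atp5g2, Atp5h, Cycs and Cox7a2l. For Ndufa13 and Uqcrc2 it was no separate copy, but the gene that overlaps them on the opposite strand, Tssk6 and Pdzd9. For Atp5h the pseudogene Gm10250 matches 99.8% of the transcript at 99.0% identity. For Cycs the closest copy, Gm10053, matches at 99.9% but covers only 30.3% of the transcript, and the Cox7a2l match covers 31.2%. For 11 members over 10% of exonic bases overlap a gene on the opposite strand. Their values are uncertain to the extent that the authors' counting shared reads between such loci. Ndufaf4 and Cox6a2 have no such copy.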

How the data were processed

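Total RNA from Beko cells was purified with RNeasy columns and made into TruSeq Stranded Total RNA Ribo-Zero Gold libraries, per the labels' protocols. The submitters' processing notes name FastQC, Bowtie2, TopHat, DESeq2 and the mm9 build. The sources used here name no counter, strand setting or annotation. The deposited values are a normalised read signal, that is read counts divided by a size factor by the authors, separately in each experiment; whole reads were recovered for 100% of values within 1e-06. No per-sample column was left unmapped.

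For each experiment limma 3.58.1 (R 4.3.3, trend) was fitted to log2(value + 1) of genes with at least 10 in at least 2 of 4 libraries, with Benjamini-Hochberg adjustment over all genes, two-sided, at 0.05. Fold changes are on the log2(value + 1) scale and understate those of low genes. Differences between responses were fitted on all 12 libraries after common median-ratio scaling of the recovered reads. The fold changes, standard errors and adjusted p-values in the authors' deposited table (log2 fold change and p-value columns; its test score, per the file headers the fold change over its error, was not used) served as an alternative, as did edgeR 4.0.16 and DESeq2 1.42.0 on recovered reads, upper-quartile and TMM scaling, size factors without histone and structural RNA genes, pseudocounts of 0.5 and 5, a filter of 50 and none, a replicate block and leaving out each library. The script was tested on simulated data. Members, gene lists and rules were chosen with earlier results of these data known. The text names, per comparison, up to 3 called members of each complex with the largest change (mean of 50 or more, groups not overlapping), Cycs, the Sdh genes, the isoform sets, members called alike in all 3 comparisons or oppositely in 2, the 4 smallest adjusted p-values of each difference and up to 2 genes of each other list. Further genes named in group descriptions were chosen after their values were seen.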

Additional observations from a re-analysis of the deposited data

How the results depend on the processing

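Counts of members called are given as higher and lower. Leaving out 1 library at a time gave 1 to 2 and 39 to 64 with DAPT, 2 to 4 and 17 to 42 with apicidin, and 8 to 15 and 10 to 28 with shHdac3. For the differences between responses it gave 6 to 9 and 14 to 27 (DAPT minus apicidin), 5 to 9 and 26 to 37 (DAPT minus shHdac3) and 2 to 5 and 9 to 24 (apicidin minus shHdac3). DESeq2 and the authors' deposited table each gave 1 and 23 with apicidin and 7 and 10 with shHdac3. With no filter shHdac3 gave 9 and 13, and with upper-quartile scaling it gave 8 and 35, while the DAPT count of higher members was 2. For DAPT minus apicidin the higher count was 12 with edgeR and 11 with upper-quartile scaling. The causes were not tested. On recovered whole reads edgeR called 43.4% of all genes with DAPT, 38.2% with apicidin and 42.6% with shHdac3. With upper-quartile scaling the share of all calls that were higher was 55.2% in place of 45.7% for DAPT minus shHdac3. With DAPT Cox8a reversed to 0.095 without replicate 1 of the DMSO controls (adjusted p = 0.035) and stood at -0.11 without their replicate 2 (adjusted p = 0.012).

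The labels tie no replicate number to a shared culture or day: same-number deviations correlated over genes at 0.02 (DAPT), 0.04 (apicidin) and 0.01 (shHdac3), and over the members at -0.05, 0.33 and -0.08. With a replicate block the counts were 1 and 64 with DAPT, 2 and 39 with apicidin and 16 and 21 with shHdac3, and 7 and 22, 6 and 32 and 4 and 17 for the 3 differences in the order above.

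Depth limits the low-level members: with apicidin the standard error of the log2 fold change was 0.27 for Cox7a1 and 0.18 for Cox6b2, against 0.04 for the abundant Atp5h.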
